A study of Homo sapiens with 2 samples.

Results

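The microRNAs (miRNAs) described here are miR-192, miR-194 and miR-215, 3 of the 365 miRNA assays in the series, selected by assay name. No measured value enters that rule, though the group was proposed with earlier results of these data known. All 3 names stood on the card once, and no further assay carried one of these names with an arm suffix. None of the names used here carries a star, so a star could not be searched for. Some other names, such as miR-126 and miR-182, stood on the card under more than 1 assay number. They were measured by quantitative PCR in CL1-5, an invasive line of human lung adenocarcinoma, with 1 RNA sample from stable pcDNA3.1 cells (the empty vector, below vector cells) and 1 from stable cells overexpressing ANGPTL1, an angiopoietin-like protein that cells secrete. Both lines had been selected with G418 for 4 weeks, per the labels' protocols, and nothing used here says whether each was a clone or a pool. With 1 sample per group there is no replicate spread, so no difference below carries an error or a test, and each compares these 2 RNA samples. The comparison asked whether miRNA levels differ between ANGPTL1-overexpressing and vector cells.

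MiRNAs are short RNAs cut from hairpin precursors that lower the output of messenger RNAs pairing with their seed, bases 2 to 8 from the 5′ end. The miR-192, miR-194 and miR-215 group comes from 2 loci, each of which makes a copy of miR-194 beside either miR-192 or miR-215. The group is known as induced by the tumour suppressor p53, with cell cycle arrest among the described outcomes, and as abundant in gut, liver and kidney epithelium. In kidney, miR-192 is known for its responses to TGF-beta.

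The mature sequences are shown because 2 of the 3 miRNAs share a seed and the third is identical from both loci. They are the RefSeq 5p sequences of GRCh38.p14, matched by name for all 3 miRNAs, 5′ to 3′, with the seed in capitals. Names of this card generation without an arm suffix stand for the strand then taken as the mature one, and the files give no assay sequence.

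miR-192-5p: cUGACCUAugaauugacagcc

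miR-215-5p: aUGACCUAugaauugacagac

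miR-194-5p: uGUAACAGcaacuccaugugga

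The first is encoded at chr11:64891203-64891223 and the second at chr1:220117916-220117936, both on the minus strand. The miR-192 and miR-215 sequences are both 21 bases long and identical at 19 of them. Counted from the 5′ end of miR-192, the differences are C1A and C20A (the base of miR-192 first, that of miR-215 last), so both lie outside the seed. Among 2351 different human mature sequences in the RefSeq table, the seed UGACCUA occurs in these 2 only, and the seed of miR-194, GUAACAG, in miR-194-5p only. No other assay on the card therefore matched a member by seed. Whether the assays for miR-192 and miR-215 read each other's target was not tested.

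The miR-194 sequence lies at chr11:64891404-64891425 in the gene MIR194-2 and at chr1:220118206-220118227 in MIR194-1, again on the minus strand. The 22 bases are the same at both places. The hairpins around them are shown for contrast, with miR-194-5p in capitals.

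MIR194-1: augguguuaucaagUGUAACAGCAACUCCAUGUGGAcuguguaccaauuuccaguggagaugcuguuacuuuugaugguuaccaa

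MIR194-2: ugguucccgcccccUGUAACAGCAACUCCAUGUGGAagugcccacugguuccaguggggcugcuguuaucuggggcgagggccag

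In a global alignment the hairpins were identical at 50 of 85 positions (58.8%), and the mature arm made up 22 of the 50. The assay for mature miR-194 thus reads a sequence that both loci encode, while the RefSeq table names a miR-194-3p for MIR194-2 alone. On chromosome 11, MIR194-2 is followed by MIR192 after a gap of 108 bases. On chromosome 1, MIR194-1 is followed by MIR215 after 194 bases. The chromosome 11 pair lies within the span of MIR194-2HG, a long noncoding RNA gene. The chromosome 1 pair lies within the spans of IARS2, which encodes the mitochondrial isoleucyl-tRNA synthetase, and of the long noncoding RNA gene LOC124904515. Exons and introns of these genes were not used here.

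**Figure D1:**
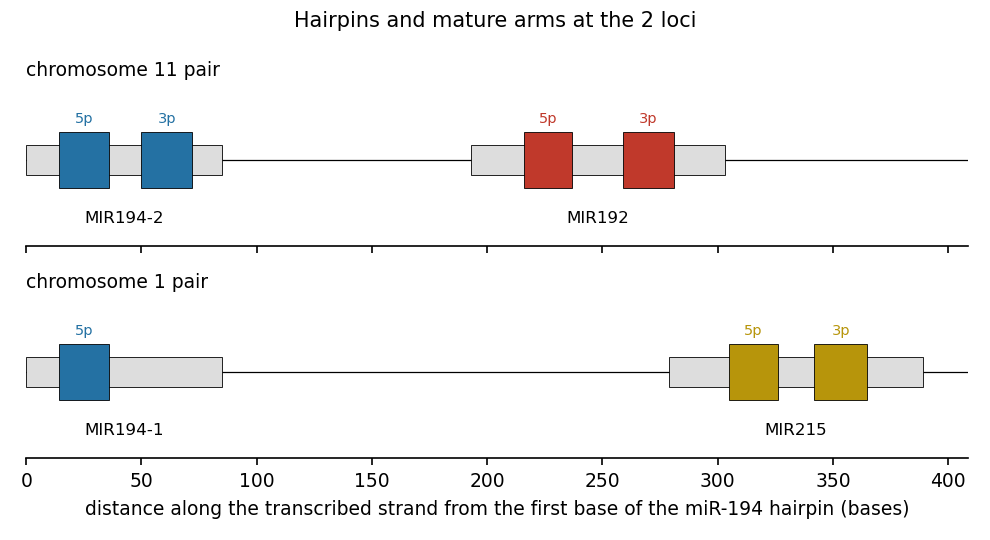
Map of both loci to scale, with the distance in bases along the transcribed strand from the first base of the miR-194 hairpin on the x axis, hairpins as grey boxes and mature arms as coloured boxes (blue miR-194, red miR-192, ochre miR-215). The hairpins of the chromosome 11 pair lie 108 bases apart and those of the chromosome 1 pair 194 bases apart.

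The readout was the threshold cycle (Ct), the PCR cycle at which an assay's fluorescence crosses a set level, so that a lower cycle means more template. A miRNA counted as detected below cycle 35, and 40 was the last cycle. RNU48, the small nucleolar RNA used as reference, stood at cycle 20.79 in vector cells and 21.21 in ANGPTL1 cells. The assays below cycle 35 made up 43.0% of 365 in vector cells and 43.3% in ANGPTL1 cells, and 145 were below it in both samples. The cycles are averages, but no source used here says over how many wells or with what spread.

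Of the 3 miRNAs, miR-192 and miR-194 were detected in both samples and miR-215 only in vector cells. miR-192 stood at cycle 27.79 in vector cells and 28.25 in ANGPTL1 cells. Its delta Ct, the cycles after RNU48 in the same sample, was 7.0 and 7.04. The resulting log2 ratio of ANGPTL1 over vector cells, delta Ct of vector cells minus that of ANGPTL1 cells, was -0.04. The levels of miR-192 in the 2 samples were thus 1.03-fold apart relative to RNU48.

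miR-194 stood at cycle 30.39 in vector cells and 30.60 in ANGPTL1 cells, with delta Ct values of 9.60 and 9.39. Its log2 ratio was 0.21, or 1.16-fold higher in ANGPTL1 cells relative to RNU48, and -0.21 without normalization. The sign of this ratio thus differs with and without normalization, as RNU48 itself came 0.42 cycles later in ANGPTL1 cells. With other references the ratio of miR-194 was -0.26 (median cycle of detected miRNAs) and 0.22 (median difference of cycles). Relative to RNU48, the median log2 ratio over the 145 was -0.01. Neither miRNA passed 2-fold. Over all 145, 7.59% were at least 2-fold higher and 4.83% at least 2-fold lower in ANGPTL1 cells, so most lay within 2-fold as both of these did.

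miR-215 stood at cycle 34.91 in vector cells, 0.09 cycles before the detection limit, and at cycle 40 in ANGPTL1 cells. In vector cells its delta Ct was 14.12. Setting the cycle in ANGPTL1 cells to the limit of 35 gives a log2 ratio of at most 0.33, which includes 0 and so gives no direction. This turns with the setting, since the ratio is at most -2.67 (at least 6.36-fold lower) with a limit of 38. With the median cycle of detected miRNAs as reference it is at most -0.14, and without normalization at most -0.09. The last bound is below 0 by construction for any miRNA detected only in vector cells, so its sign is no result. The authors' deposited table has a fold change of 0.0393 for miR-215, 25.5-fold lower in ANGPTL1 cells, and that value takes the cycle of 40 as a measurement. With the limit of 35 and RNU48, a difference in miR-215 was not detectable. A total of 12 miRNAs, 3.29% of the assays, were detected only in vector cells, and for 3 of them, miR-215 included, the bound lay above 0.

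**Figure D2:**
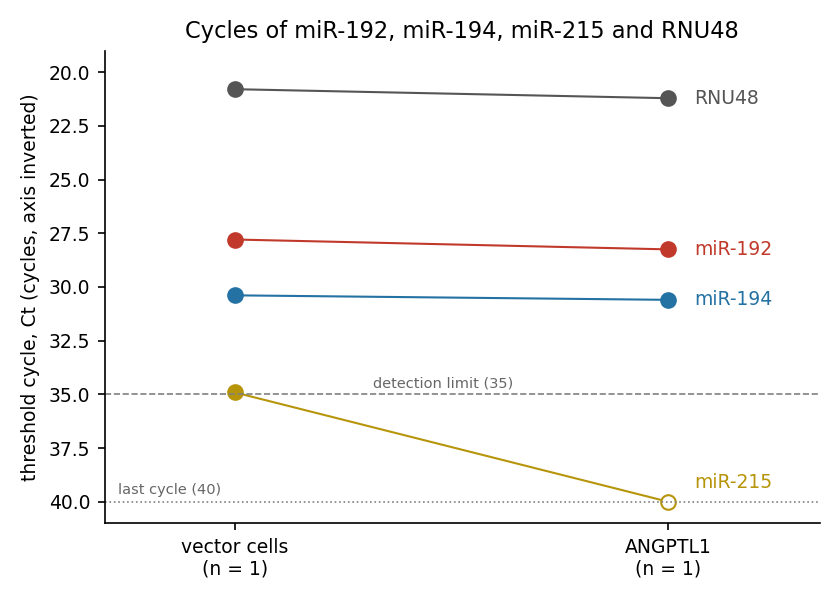
Threshold cycle on an inverted y axis (upward means more template) for RNU48 and the 3 miRNAs in vector cells and in ANGPTL1 cells, 1 sample each, with lines joining the same assay and an open circle for no amplification. miR-192 and miR-194 differ by 0.46 and 0.21 cycles between the samples, and miR-215 lies at 34.91 in vector cells and 40 in ANGPTL1 cells.

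By cycle, miR-192 came 56th among the 157 miRNAs detected in vector cells and 58th among 158 in ANGPTL1 cells. miR-194 came 99th and 91st. miR-215 came 156th of 157 in vector cells, next to last. The order miR-192, miR-194, miR-215 was the same in both samples, with miR-215 past the detection limit in ANGPTL1 cells. Each assay has its own efficiency, so these places order cycles and are not molecule counts.

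The 2 detected members were set beside miRNAs of similar cycle. Within 1 cycle of the mean of miR-192 there were 23 other miRNAs detected in both samples, with log2 ratios from -0.65 to 1.88 and a median of 0.01. Of these, 20 had a ratio farther from 0 than that of miR-192, and 3 were at least 2-fold higher. Around miR-194 there were 31, from -3.58 to 3.58 with a median of -0.02, and 22 of them had a ratio farther from 0. Here 2 were at least 2-fold higher and 3 at least 2-fold lower. Both members thus lay near the middle of miRNAs of their own level.

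**Figure D3:**
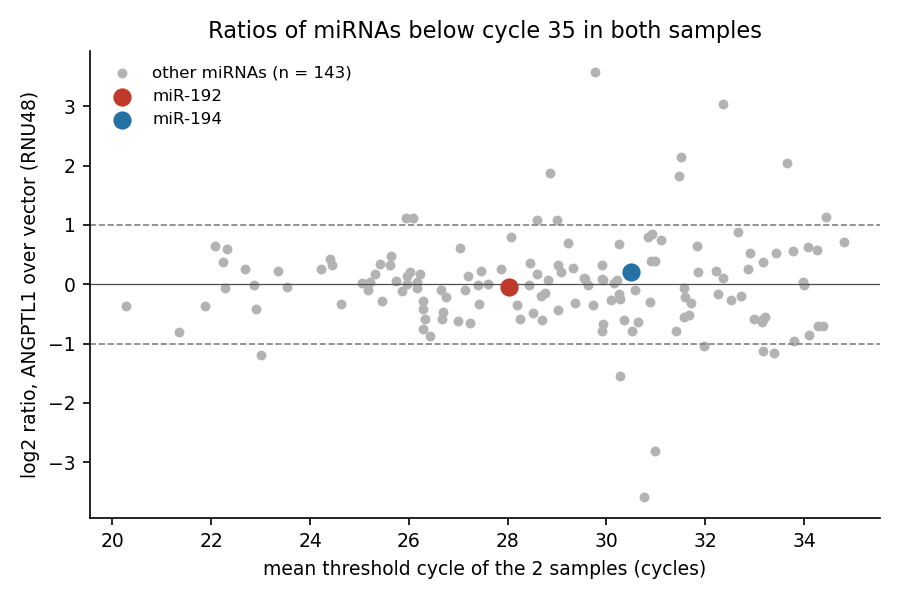
Log2 ratio of ANGPTL1 over vector cells, relative to RNU48, against the mean threshold cycle of the 2 samples for the 145 miRNAs below cycle 35 in both, with dashed lines at 2-fold. miR-192 (-0.04) and miR-194 (0.21) lie close to 0, among 143 other miRNAs that range from -3.58 to 3.58.

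The miRNAs nearest to miR-192 by distance over the 2 cycles, with n = 2 samples, were let-7a at 0.30 cycles, the miR-182 assay numbered 4373271 at 0.33, miR-425-5p at 0.49 and miR-196a at 0.57. Their log2 ratios were 0.25, -0.35, -0.58 and -0.01. The nearest to miR-194 were miR-152 at 0.25 cycles, miR-328 at 0.40, miR-615 at 0.43 and miR-181d at 0.46, with log2 ratios of -0.10, 0.07, -0.17 and -0.25. Relative to RNU48, all 8 were within 2-fold. That follows from their choice by closeness in the same 2 cycles that give the ratio, so it is no separate result.

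For miR-215 the matching set is the late assays. In vector cells, 12 other assays stood from cycle 34 to under 35. In ANGPTL1 cells 5 of them were below cycle 35, 6 between 35 and 40, and 1, an assay named miR-302c (number 4373277), at 40. From cycle 32 to under 34 in vector cells, 1 of 27 assays was at 40 in ANGPTL1 cells (3.7%), and from 35 to under 37 it was 9 of 28 (32.1%). The reverse counts, for assays binned by their cycle in ANGPTL1 cells, were 2 of 32 (6.25%) and 9 of 29 (31.0%) at 40 in vector cells. Assays at 40 in one sample and late in the other thus occurred in both directions, and more of them the later the cycle. A cycle of 40 was not limited to such late assays. miR-510 stood at cycle 29.25 in vector cells and 40 in ANGPTL1 cells.

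**Figure D4:**
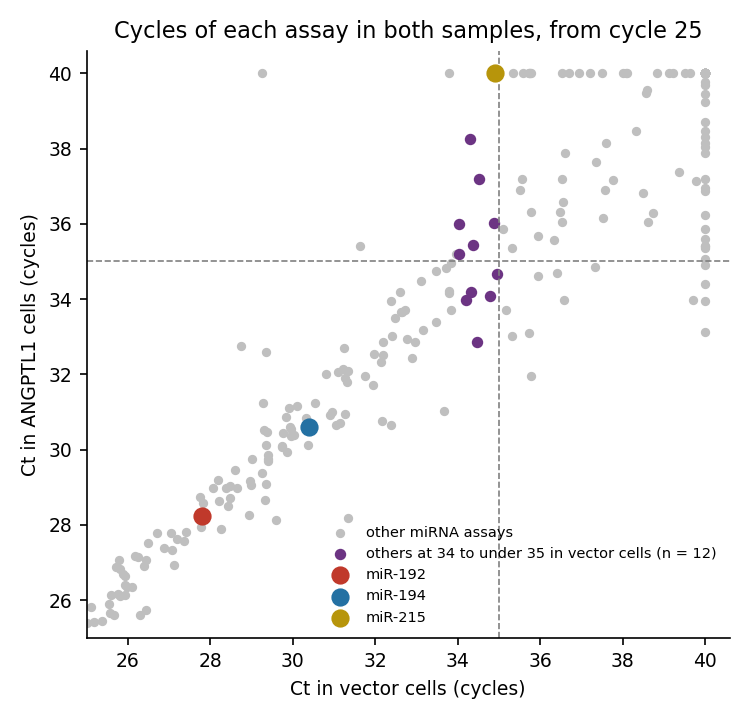
Threshold cycle in ANGPTL1 cells against that in vector cells for each miRNA assay, from cycle 25, with dashed lines at the detection limit of 35 and the 12 other assays from cycle 34 to under 35 in vector cells in purple (1 of these, miR-302c, lies under the miR-215 point at cycle 40). miR-192 and miR-194 lie below the limit of 35 in both samples. In the band of miR-215, cycles in ANGPTL1 cells run from 32.85 to 40.

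The source of the miR-194 signal cannot be told apart by its assay, since both loci encode the same 22 bases. The partners, which each come from 1 locus, were measured separately. The chromosome 11 partner, miR-192, was detected in both samples, 2.60 cycles before miR-194 in vector cells and 2.35 cycles before it in ANGPTL1 cells. The chromosome 1 partner, miR-215, came 4.52 cycles after miR-194 in vector cells. In ANGPTL1 cells, with miR-215 at or past cycle 35, it came at least 4.40 cycles after miR-194. The miR-194 signal therefore stood beside a clear signal of the chromosome 11 partner in both samples and beside a signal of the chromosome 1 partner at the detection limit in 1 sample. How much miR-194 each locus made was not tested, and neither hairpins nor miR-194-3p were measured on the card.

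To show how far assays of neighbouring miRNAs stand apart on this card, 213 names matched to a single RefSeq hairpin were used. Each was paired with the next matched name on the same strand within 10 kb. Unmatched names were skipped, and miR-93, miR-96 and miR-183 occur in no pair. The pairs may therefore not be all the neighbours on the card. This comparison was chosen after the values were seen. Of 60 such pairs, 14 had both miRNAs detected in both samples, and some of these share a miRNA. Their gap in vector cells ran from 1.15 to 12.38 cycles with a median of 3.30, and 10 of the 14 had a gap at least as wide as the 2.60 cycles between miR-192 and miR-194. In a further 5 pairs 1 miRNA was detected in both samples and its neighbour in neither. Their gaps in vector cells read 2.87 to 7.84 cycles, but only by taking cycles past 35, up to 40, as measured. miR-215, detected in 1 sample, belongs to neither set. A gap of at least the 4.52 cycles between miR-215 and miR-194 occurred in 4 of the 14 pairs. These were miR-99b with let-7e, let-7e with miR-125a, miR-99a with let-7c, and miR-660 with miR-502, so let-7 assays recur among them. The further 5 pairs cannot be counted this way, since their undetected cycles are not measurements.

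Between samples, the log2 ratios of miR-192 and miR-194 differed by 0.25. In the 14 pairs this difference ran from 0.02 to 1.22 with a median of 0.24, and in 7 of them it was wider than for miR-192 and miR-194. The choice of reference leaves these differences as they are. The pair of miR-192 and miR-194 thus stood at about the middle of the neighbouring pairs.

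**Figure D5:**
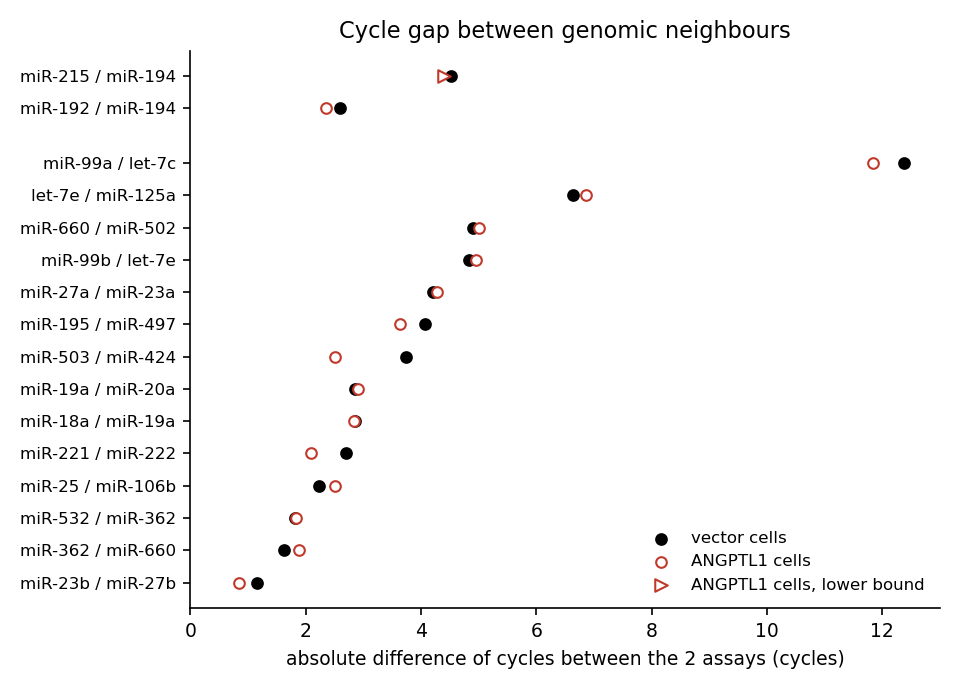
Absolute difference of threshold cycles between 2 assays on the x axis for 14 pairs of genomic neighbours detected in both samples and, at the top, for miR-192 and miR-215 each against miR-194, in vector cells (black) and in ANGPTL1 cells (red, open). The gap of miR-192 to miR-194 is 2.60 and 2.35 cycles, and that of miR-215 to miR-194 is 4.52 cycles in vector cells and at least 4.40 in ANGPTL1 cells (triangle).

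MiRNAs tied to p53 were read from a list of 26 names, of which 25 were on the card. The list holds miR-192, miR-194 and miR-215 themselves, so its counts are not a background separate from them. Of the 25, 17 were below cycle 35 in both samples, 2 only in vector cells (miR-215 and miR-33), 1 only in ANGPTL1 cells, and 5 nowhere. Over all 365 assays these counts were 145, 12, 13 and 195. Of the 17, 2 had ratios of 2-fold or more upward in ANGPTL1 cells, 1 downward and 14 within 2-fold, beside 7.59% and 4.83% over all 145. Both the 17 and the 14 include miR-192 and miR-194. Without normalization the list had 2 higher and 3 lower, beside 6 and 29 over all 145, and with a limit of 32 it had 0 and 0. Their median log2 ratio was -0.04, or -0.05 over the 15 without miR-192 and miR-194, and -0.01 over the 145.

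Among the p53-induced names, miR-34c, of the family that represses cell cycle and survival genes, had a log2 ratio of 2.04 from late cycles, 34.46 in vector cells and 32.85 with ANGPTL1. miR-34b, at 40 and 33.96, was at least 2.75-fold higher, while miR-34a stood at -0.17. The cycle of miR-34c in vector cells lies in the same late band as that of miR-215. miR-200c, a repressor of ZEB1 and ZEB2, stood at 1.82, with cycles of 32.16 and 30.77. miR-107, from an intron of PANK1, stood at -1.04, and miR-149 and miR-23a at 0.17 and 0.10. miR-143, miR-145 and miR-200b were at cycle 40 in both samples. miR-192 and miR-194 were thus nearer to miR-34a, miR-149 and miR-23a in ratio than to the miR-34b and miR-34c pair.

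Of the miRNAs whose processing p53 is known to help, miR-16 and miR-15a stood at -0.36 and -0.79. Of those that act on p53 or its regulators, 7 were detected in both samples. All were within 2-fold, as were all but 7.59% (higher) and 4.83% (lower) of the 145, and no result is read from that. The highest ratios of the 7 belonged to miR-30d (0.61) and miR-125b (0.43), both known to target the p53 messenger RNA, and to miR-221 (0.25). The others were miR-29a (-0.05), miR-29c (-0.26), miR-222 (-0.36) and miR-25 (-0.62). miR-33 went from cycle 33.79 in vector cells to 40 with ANGPTL1, which is lower by at least 1.73-fold relative to RNU48.

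From a second list of 14 names known from gut, liver and kidney epithelium, held by 15 assays, 5 assays were below cycle 35 in both samples, 2 only in vector cells and 8 nowhere. Over the card, 145 of 365 assays were below it in both samples, 12 only in vector cells and 195 nowhere. The marker counts below stand beside the same shares. The 5 listed assays in both were miR-192, miR-194, miR-196a, miR-200c and miR-203, with a median of -0.01. miR-215 and miR-375, a miRNA of endocrine cells, were detected only in vector cells, the latter at cycle 34.38 against 35.45 in ANGPTL1 cells. miR-122a, the defining miRNA of hepatocytes, stood at 40 in vector cells and 35.87 in ANGPTL1 cells, and miR-204, known from kidney, at 40 in both. Within this list, miR-192 and miR-194 were thus present with signals of miR-196a, miR-200c and miR-203. The 8 assays detected in neither sample were those for miR-122a, miR-204, miR-31, miR-429, miR-141, miR-200b and miR-200a (2 assays). How specific the listed names are to gut, liver and kidney epithelium was not tested. Of 7 assays for 6 epithelial marker names, miR-200c and miR-203 (-0.30) were detected in both samples and the 5 others, for miR-141, miR-200a, miR-200b and miR-205, in neither. The blood, muscle and fibroblast markers gave 2 assays detected in both samples of 13, miR-133b (-0.55) and the miR-199a assay numbered 4378068 (-0.70). The blood marker miR-142-3p was below cycle 35 only in vector cells, at 34.51 against 37.19. The 2 assays named miR-126, of endothelium, were both detected in both samples, with ratios of 0.33 and -0.41. Their cycles in vector and ANGPTL1 cells were 29.86 and 29.95 for the first and 25.87 and 26.70 for the second. The neuron and endocrine list had miR-375 only in vector cells, miR-137 only in ANGPTL1 cells, and miR-124a nowhere. The part of these markers in the values of the 3 miRNAs was not tested.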

How the data were processed

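Total RNA (500 ng per sample) was reverse transcribed with multiplexed primers and run through 40 PCR cycles on version 1.0 of the Human MicroRNA Panel, a TaqMan Low Density Array card, per the labels' protocols. The authors deposited 3 tables. Per the file headers, their values are the average Ct and average delta Ct to RNU48, both treated here as a score per assay, and the fold change as a ratio of ANGPTL1 cells over control. Software and threshold settings: not given in the sources used here. Deposited delta Ct matched the cycles within 0.01. Relative levels in 2 other columns, which are delta Ct made linear, were left aside.

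Groups came from the treatment labels. Log2 ratios were taken from the deposited delta Ct. Detection meant a cycle below 35, and a ratio was counted at 2-fold. A miRNA detected in 1 sample had its other cycle set to 35 and is given as a bound. No test was run because each group has 1 sample. The rule named the 3 miRNAs, the 4 nearest to each detected one, seed sharers, RNU48 and listed miRNAs detected in at least 1 sample. Some other miRNAs, among them listed ones detected in neither sample, were named outside this rule. The miRNAs and lists were chosen with earlier results of these data known. The counting rules were tested on simulated data. Hairpins were aligned with Biopython 1.88. Alternatives were other references, detection limits of 32, 38 and none, the authors' fold change table and a 1.5-fold threshold.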

Additional observations from a re-analysis of the deposited data

How the results depend on the processing

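Relative to RNU48, miR-192 and miR-194 kept log2 ratios of -0.04 and 0.21 with every detection limit tried and in the authors' deposited table. That was fixed in advance and is no check. Their cycles, 27.79 to 30.60, lie before the lowest limit of 32, and the deposited fold changes hold the same difference of delta Ct. Without normalization miR-192, miR-194 and the bound of miR-215 stood at -0.46, -0.21 and -0.09, and with the median cycle of detected miRNAs as reference at -0.51, -0.26 and -0.14. The shift in RNU48 (0.42) accounts for the change without normalization by construction. The bound without normalization is below 0 for any miRNA detected only in vector cells. The median difference of cycles, a reference added after the data were seen, gave -0.03, 0.22 and 0.34. The bound of miR-215 was -2.67 with a limit of 38. It was -4.67 with no limit and in the authors' deposited table, both of which take cycle 40 as measured. With a limit of 32 miR-215 was detected in neither sample.

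The background of 11 miRNAs at least 2-fold higher and 7 lower was 6 and 29 without normalization, 6 and 31 with the median cycle, 6 and 2 with a limit of 32, 23 and 11 with 38, 29 and 12 with none, and 24 and 28 at 1.5-fold. Of the p53-linked list, 3 were lower without normalization, with the median cycle and at 1.5-fold, and with a limit of 32 there were 0 higher and 0 lower of 13. Other limits test fewer or more assays. No paired analysis was possible because there is a single sample of each kind, and for that reason no replicate was left out either.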
